A study of Mus musculus with 14 samples.

Results

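The genes described here are 43 genes of DNA replication and S phase, the period of the cell cycle in which the genome is copied. They were chosen by name, as a list of licensing factors, helicase subunits, polymerases, clamp and clamp loader subunits, nucleotide synthesis enzymes, chromatin copying factors and S phase regulators, and each was read from probe sets annotated to that 1 symbol. Of the 43 genes, 42 had such a probe set, out of 12393 genes with one on the array, and Chaf1a was not analysed here. The 42 genes carried 73 probe sets, and 23 of them had several.

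RNA was measured on single-colour oligonucleotide arrays in 14 samples of mouse small intestine. Adult villi and adult crypts, with 3 arrays each, came from C57BL/6 mice aged 12 weeks, each array from a single animal. Endoderm and mesenchyme at embryonic day 12 (E12), with 4 arrays each, were separated by dissection after collagenase digestion of fetal intestine, and no strain is given for them in the labels. In each layer 3 arrays held pools of 10 to 12 fetuses and the fourth a pool of 35 fetuses. The pair of arrays from 35 fetuses was deposited in the first table with the 6 adult arrays, and the other 6 E12 arrays formed the second table, so levels are compared only within a table. All values are log2 signals, on which a difference of -1 is a halving of signal, and a gene was called at a limma adjusted p under 0.05 after Benjamini-Hochberg adjustment over all genes tested.

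Villi are covered mainly by absorptive and secretory cells that no longer divide, and crypts hold the stem and transit cells that replace them. Enterocyte markers were called higher in villi than in crypts for 6 of 6 genes tested, and crypt base and Paneth cell markers lower for 6 of 7, the exception being Ascl2. In the second table, epithelial markers were higher in E12 endoderm than in E12 mesenchyme for 7 of 7 genes and mesenchymal markers lower for 9 of 9. The tissue names thus fitted most of their markers. All marker lists were chosen with earlier results of these data known, so this fit is not an independent check. Being lower in villi did not mean absent there. Mmp7 read 8.67 to 9.66 in villi beside 7.30 in the E12 endoderm array, and Lyz1 at least 10.10 beside 5.21. Lgr5 went the other way, with 6.35 to 6.91 in villi beside 8.54. Whether villus samples held crypt cells was not tested.

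Replication starts when the origin recognition complex, Cdc6 and Cdt1 load the Mcm2 to Mcm7 helicase onto DNA before S phase, a step called licensing. Cdc7 kinase, Cdc45 and the GINS complex then turn the loaded helicase into a moving fork, at which primase and the polymerases copy both strands, the Pcna clamp holds polymerases on DNA, and Fen1 and Lig1 join the pieces of the lagging strand. Many of these genes are transcribed at the passage into S phase under E2F factors, which are held back by the retinoblastoma proteins until cyclin-dependent kinases release them.

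Because E2F control is the textbook link among these genes, the promoters of the 4 members with the largest villus deficits among those that carry an E2F spelling are shown. Each runs from 250 bases before to 50 after the start annotated by RefSeq on GRCm38.p6, 5′ to 3′ on the strand of the gene. Capitals mark the spellings TTTCCCGC, TTTGGCGC and TTTCGCGC, searched on both strands, so a match on the opposite strand appears as its reverse complement. They come from chr5:138171834-138172133 (minus strand, Mcm7), chr8:75109259-75109558 (plus strand, Mcm5), chr9:20952574-20952873 (minus strand, Dnmt1) and chr8:122567765-122568064 (plus strand, Cdt1).
Mcm7: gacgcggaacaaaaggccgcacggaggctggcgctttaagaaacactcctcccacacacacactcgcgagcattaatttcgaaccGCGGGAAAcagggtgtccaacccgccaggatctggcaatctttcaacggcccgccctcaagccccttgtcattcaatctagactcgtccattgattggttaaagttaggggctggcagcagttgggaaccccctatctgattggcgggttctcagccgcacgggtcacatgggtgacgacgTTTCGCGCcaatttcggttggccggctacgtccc
Mcm5: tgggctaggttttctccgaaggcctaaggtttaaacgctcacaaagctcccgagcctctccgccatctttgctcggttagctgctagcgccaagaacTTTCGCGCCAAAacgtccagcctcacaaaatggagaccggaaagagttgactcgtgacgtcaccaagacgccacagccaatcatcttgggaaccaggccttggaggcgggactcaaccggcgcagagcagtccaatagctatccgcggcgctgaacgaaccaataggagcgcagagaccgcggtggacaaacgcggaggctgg
Dnmt1: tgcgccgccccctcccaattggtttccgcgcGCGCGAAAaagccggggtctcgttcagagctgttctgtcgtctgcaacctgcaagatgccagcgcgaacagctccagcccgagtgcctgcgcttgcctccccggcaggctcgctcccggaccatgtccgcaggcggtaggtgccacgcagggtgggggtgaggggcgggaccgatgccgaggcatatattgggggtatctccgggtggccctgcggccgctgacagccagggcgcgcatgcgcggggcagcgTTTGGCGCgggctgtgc
Cdt1: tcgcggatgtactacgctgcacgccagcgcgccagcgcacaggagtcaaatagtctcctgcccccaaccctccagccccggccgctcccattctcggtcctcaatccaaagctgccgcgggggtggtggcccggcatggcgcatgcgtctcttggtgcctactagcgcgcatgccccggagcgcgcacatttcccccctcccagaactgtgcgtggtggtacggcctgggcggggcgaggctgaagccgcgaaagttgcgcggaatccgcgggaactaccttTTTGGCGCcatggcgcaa

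In the Mcm7 promoter the matches start at positions -165 and 17, counted from the annotated start as base 1. Those of Dnmt1 start at -219 and 34, and that of Cdt1 at 33. In Mcm5 the matches at -153 and -149 lie on opposite strands and overlap. Promoters in the table matched 36 of the 43 members by symbol, and 13 of these 36 genes (36.1%) held at least 1 of the spellings, against 2.12% of the 27025 genes in the table. The share was 29.7% of 37 other replication genes and 4.55% of 22 mitosis genes. CCAAT was found in 58.3% of the members, 81.8% of the mitosis genes and 41.1% of all genes, and TTTGAA in 16.7% of the members, 72.7% of the mitosis genes and 20.2% of all genes. A match of these letters is a description of the window and does not show that a factor binds there.

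Most of the replication genes were lower in villi than in crypts, and lower in both adult tissues than in E12 endoderm. Of the 37 members tested between the adult tissues, 27 were called lower in villi and 0 higher, with a median log2 difference of -0.82 and a range of -2.05 for Mcm7 to 0.01 for Fen1. At an unadjusted p under 0.05 all 31 of these members under it were lower. Among all 9919 genes tested 15.1% were called lower, and their median difference was 0.00. The 3 villus arrays lay below all 3 crypt arrays for 31 of the 37 members, against 23.5% of all genes tested. Genes were tested only if they exceeded the 30th percentile of the table in at least 3 arrays, and villus signal was at or under this limit on dim signals in 5 of the called members.

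The 5 members left out of that test, Orc1, Cdc6, Rfc4, Tyms and Ccne2, did not exceed the dim-gene limit in enough adult arrays. Without this limit, 28 of 42 members were called lower in villi and 12.4% of all 12393 genes were. Cdc6 (-0.48) and Rfc4 (-0.57) were then among the called genes, while Orc1 (-0.55), Tyms (0.03) and Ccne2 (0.86) were not. Ccne2, a cyclin that drives S phase entry, read 4.61, 5.69 and 4.75 in villi and 4.07, 4.18 and 4.22 in crypts, all in the range of dim signals. Every Ccne2 villus value was above every crypt value, the opposite order to most members, with an unadjusted p of 0.016 and a limma adjusted p of 0.058 when dim genes were kept.

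Against E12 endoderm, 35 of 39 members tested were called lower in crypts and 0 higher (median -1.76), where 15.1% of all genes tested were called lower. In villi 38 of the 39 were called lower than in E12 endoderm and 0 higher (median -2.54), where 22.1% of all genes tested were called lower. The difference was at least 2-fold for 31 called members in crypts and for 36 in villi, and at least 4-fold for 13 in crypts and 30 in villi. The share of all genes past these folds was not computed. In 7 of the members called in villi the villus mean lay under the limit on dim signals, so the sizes of those differences are uncertain. Only 1 endoderm array stands behind both comparisons with endoderm. The comparisons share it, and its spread is taken to be that of the adult arrays. After quantile normalization 1170 genes were called lower and 1014 higher in crypts than in endoderm, against 1520 lower and 827 higher on the deposited values, and 30 members were still called lower. Bulk arrays cannot tell fewer dividing cells from less RNA of these genes in each cell.

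**Figure D1:**
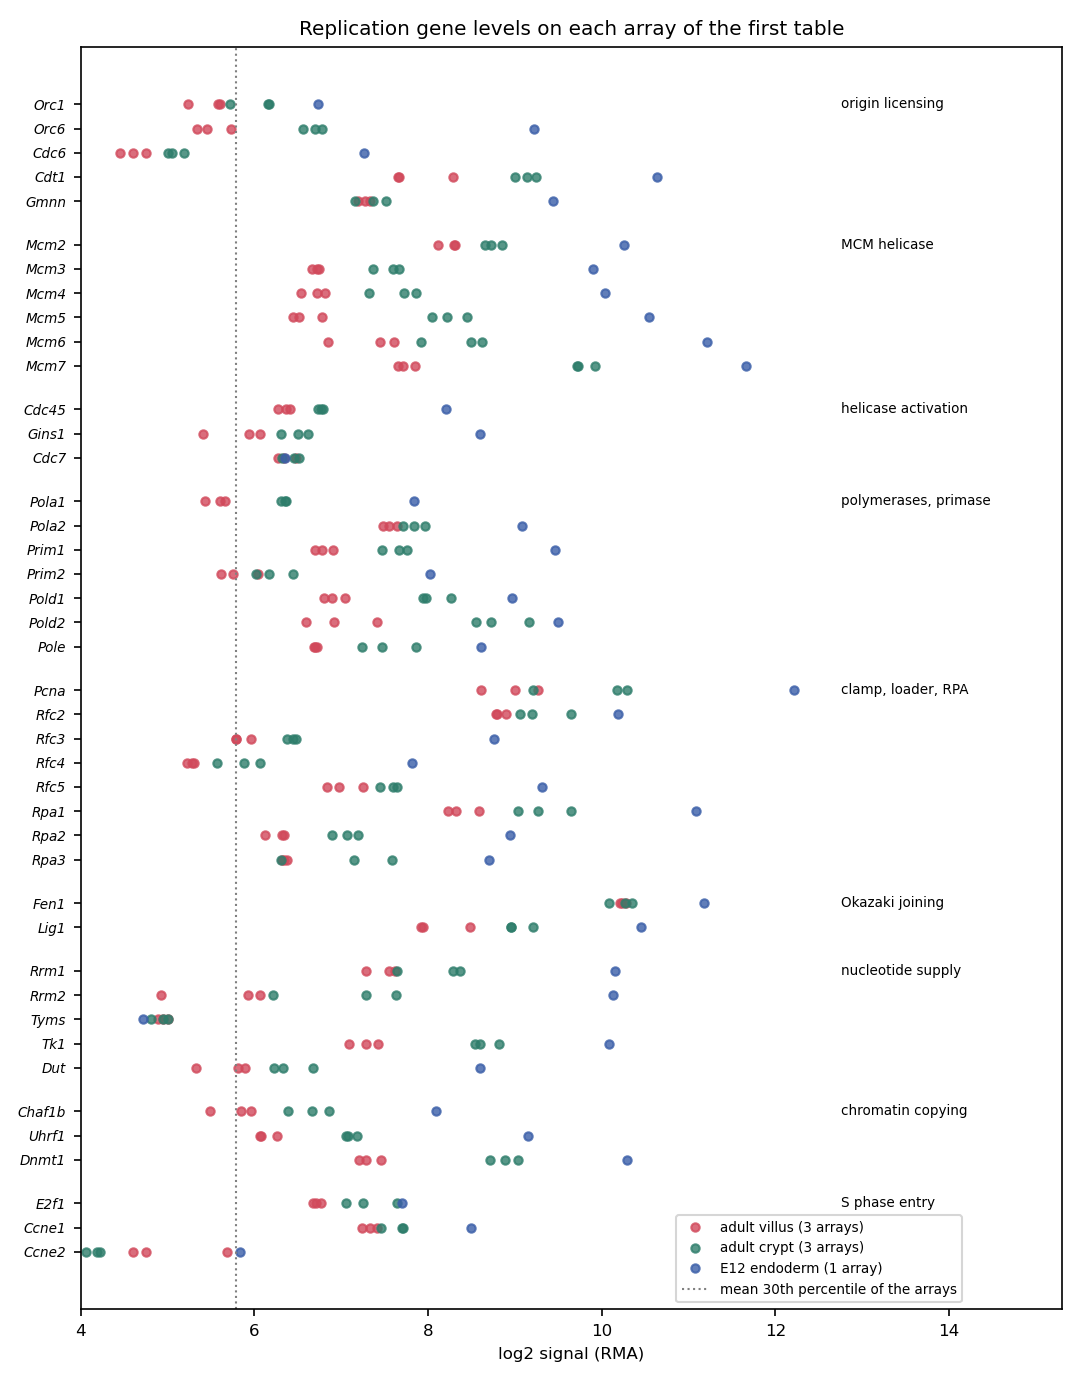
Log2 signal (x axis) of the 42 measured members, 1 line a gene and grouped by role, on the 3 villus, 3 crypt and 1 E12 endoderm arrays of the first table; each point is 1 array and the dotted line is the mean 30th percentile of the arrays. Villus points lie left of crypt points for most genes, the median member reading 6.73, 6.68 and 6.70 in villi and 7.41, 7.46 and 7.61 in crypts, and the endoderm points lie furthest right for most genes, with a median of 9.18.

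The spacing of the 3 tissues differed among members. For each of the 38 members called lower in villi than in E12 endoderm, the share of that difference lying between endoderm and crypt was computed, and its median was 69.6%. On the brightest probe set of each gene it exceeded 50% in 33 members and was at or under it for Pold2 (27.2%), E2f1 (38.8%), Pold1 (44.2%), Dnmt1 (47.3%) and Mcm7 (47.7%). Gmnn (96.5%) had nearly its whole difference between endoderm and crypt, and so did Fen1 on that probe set (101%). The share depended on the probe set, with 34.5% on the other one of Fen1, 17% on that of Pold1 and 58.1% to 65.4% on the others of Mcm7. These shares describe means that rest on the same lone endoderm array and carry no test. In 7 of the 38 members the villus mean lay under the limit on dim signals, so their shares are uncertain. No share was computed for other genes, so the spacing is not shown to be particular to the members.

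Of the 3 licensing factors tested between the adult tissues, 2 were called lower in villi. Cdt1, which brings the helicase to origins, read 7.67, 7.65 and 8.28 in villi, 9.24, 9.14 and 8.99 in crypts and 10.64 in E12 endoderm. Orc6, a subunit of the origin recognition complex, read 5.73, 5.34 and 5.45 in villi, 6.69, 6.78 and 6.56 in crypts and 9.22 in E12 endoderm. No villus array of either gene reached the lowest crypt array, and Orc6 in villi was near background. The villus minus crypt difference was -1.26 ± 0.20 for Cdt1 (SE, limma adjusted p = 0.0032) and -1.17 ± 0.15 for Orc6 (0.0015). Gmnn, the geminin that blocks relicensing by binding Cdt1, read 7.28, 7.20 and 7.33 in villi and 7.16, 7.37 and 7.51 in crypts, and these arrays overlapped. Its difference of -0.08 had a 95% interval of -0.41 to 0.26 and was not called, whereas it stood at 9.44 in E12 endoderm, a crypt minus endoderm difference of -2.10 that was called. Against endoderm, Orc6 fell by 2.54 in crypts and by 3.71 in villi, and Cdt1 fell by 1.52 in crypts and by 2.77 in villi. Orc1, the large subunit of the same complex, was not called between crypt and endoderm (-0.72, adjusted p = 0.082) and was called lower in villi than in endoderm (-1.26).

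All 6 subunits of the Mcm helicase were called lower in villi than in crypts, with differences between -2.05 and -0.50. Mcm7 read 7.85, 7.66 and 7.71 in villi, 9.92, 9.72 and 9.72 in crypts and 11.66 in E12 endoderm, so its tissues were far apart compared with the spread of arrays. Mcm5 read 6.78, 6.45 and 6.51 in villi, 8.45, 8.05 and 8.22 in crypts and 10.54 in E12 endoderm, with the same order. The villus minus crypt difference was -2.05 ± 0.14 for Mcm7 (limma adjusted p = 0.00015), a 4.14-fold deficit and the largest among the brightest probe sets of the members tested, though other probe sets of Uhrf1, Pold1, Fen1 and Dnmt1 gave larger ones. It was -1.66 ± 0.17 for Mcm5 (0.00052), a 3.16-fold deficit. On their brightest probe sets Mcm2 (-0.50), Mcm3 (-0.83), Mcm4 (-0.95) and Mcm6 (-1.04) had smaller differences. The other Mcm2 probe set read 5.63, 6.19 and 6.11 in villi and 6.70, 7.31 and 7.22 in crypts, a separation of -1.10. Against endoderm, Mcm6 read 6.85, 7.60 and 7.45 in villi and 7.91, 8.49 and 8.62 in crypts beside 11.21 in endoderm. On the brightest probe sets its gap between crypt and endoderm (-2.87) was the largest in the complex. Mcm4 followed on these, with 6.53, 6.72 and 6.81 in villi, 7.32, 7.72 and 7.86 in crypts and 10.04 in endoderm (crypt minus endoderm -2.40). Other probe sets of Mcm2 (-3.00) and Mcm3 (-2.92) gave larger gaps than Mcm6, and another of Mcm7 (-2.73) a larger gap than Mcm4. The Mcm2 call between villi and crypts was lost without any 1 of 4 arrays (adjusted p 0.058 to 0.11), and the Mcm6 call without crypt replicate 21 (0.081) or 41 (0.065).

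Of the 3 helicase activation factors, 2 were called lower in villi than in crypts, by small margins. Gins1, a subunit of the GINS complex, read 5.94, 5.41 and 6.07 in villi, 6.61, 6.30 and 6.50 in crypts and 8.60 in E12 endoderm. Cdc45 read 6.41, 6.36 and 6.27 in villi, 6.79, 6.73 and 6.76 in crypts and 8.21 in E12 endoderm. The arrays of villi and crypts did not overlap for either gene, though the gap was small. Villi minus crypts gave -0.67 ± 0.20 for Gins1 and -0.42 ± 0.13 for Cdc45 (limma adjusted p = 0.038 for each), and crypt minus endoderm was -2.13 for Gins1 and -1.44 for Cdc45. Leaving out any 1 of the 6 adult arrays took the Cdc45 call away (adjusted p 0.065 to 0.13), and 4 of them that of Gins1 (0.073 to 0.12). The probe set that represents Cdc7, the kinase that fires origins, read 6.34, 6.47 and 6.27 in villi, 6.45, 6.51 and 6.32 in crypts and 6.35 in endoderm, with all tissues overlapping.

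Of the 7 polymerase and primase genes, 5 were called lower in villi than in crypts. Pold2, the accessory subunit of polymerase delta, read 7.41, 6.59 and 6.91 in villi, 8.55, 8.72 and 9.16 in crypts and 9.50 in E12 endoderm. Pold1, the catalytic subunit of the same enzyme, read 6.89, 6.80 and 7.04 in villi, 8.27, 7.94 and 7.97 in crypts and 8.97 in E12 endoderm. For both, villi were well below crypts, and the step between crypts and endoderm was smaller than that between villi and crypts. The villus minus crypt difference was -1.84 ± 0.25 for Pold2 (limma adjusted p = 0.0016) and -1.15 ± 0.15 for Pold1 (0.0014). Crypt minus endoderm was -0.69 for Pold2, which was not called (95% interval -1.50 to 0.13), and -0.91 for Pold1, a call lost without crypt replicate 21 (adjusted p = 0.068). Pole, the catalytic subunit of polymerase epsilon, was likewise called at -1.09 between crypt and endoderm and lost without that array (0.065). After quantile normalization neither Pold1 (-0.67, 0.084) nor Pole (-0.88, 0.056) was called.

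Primase, which makes the RNA primers, showed the larger embryonic gap among these enzymes on the brightest probe sets only. Prim1, its catalytic subunit, read 6.91, 6.78 and 6.70 in villi, 7.67, 7.76 and 7.47 in crypts and 9.46 in E12 endoderm. Prim2, its large subunit, read 5.75, 5.61 and 6.04 in villi, 6.02, 6.45 and 6.17 in crypts and 8.02 in E12 endoderm. Villus and crypt arrays were separate for Prim1 but overlapped slightly for Prim2. Crypt minus endoderm was -1.83 for Prim1 and -1.81 for Prim2, while villus minus crypt was -0.83 for Prim1 (adjusted p = 0.0043) and -0.41 for Prim2 (0.12, not called). Pola1, the catalytic subunit of polymerase alpha, was called at -0.77 and its partner Pola2 was not (-0.28, adjusted p = 0.17).

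The clamp, its loader and the single-strand binding proteins gave 4 calls among 7 genes tested. Pcna, the sliding clamp, read 9.0, 8.61 and 9.26 in villi, 9.21, 10.17 and 10.29 in crypts and 12.21 in E12 endoderm. Crypt replicate 12 lay inside the villus range and the other crypt arrays above it. The Pcna difference of -0.93 ± 0.31 was not called (limma adjusted p = 0.053), and without crypt replicate 12 it was -1.27 and called (0.015). The same array was the lowest crypt array for Rpa3, the small subunit of replication protein A, with 6.38, 6.31 and 6.34 in villi and 6.31, 7.15 and 7.59 in crypts. Rpa3 was not called (-0.67, adjusted p = 0.13) and was called without that array (-1.02, 0.014). Over all 37 members tested, crypt replicates 12, 21 and 41 were the lowest crypt array for 12, 13 and 12 members, so replicate 12 was not low throughout. Among the villus arrays replicate 41 was the lowest for 21 members and each of the other arrays for 8, and without replicate 41 the members called lower in villi were 23.

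Rpa1, the large subunit of replication protein A, read 8.32, 8.23 and 8.59 in villi, 9.27, 9.03 and 9.65 in crypts and 11.09 in E12 endoderm. Its arrays did not overlap, and the villus minus crypt difference was -0.94 ± 0.20 (limma adjusted p = 0.0093). Rfc3, a subunit of the loader that opens the clamp, read 5.79, 5.79 and 5.96 in villi, 6.45, 6.38 and 6.48 in crypts and 8.76 in E12 endoderm. Between crypt and endoderm Rfc3 and Pcna had the same difference of -2.32, and between villus and endoderm Pcna stood at -3.26 and Rfc3 at -2.92. Rpa2 (-0.79), Rfc3 (-0.59) and Rfc5 (-0.54) were also called lower in villi than in crypts, the last lost without any 1 of 5 arrays (adjusted p 0.072 to 0.090), and Rfc2 (-0.48) was not. All 8 genes of the group were lower in crypts than in endoderm, though Rfc2 lost that call without crypt replicate 21 (0.10) or 41 (0.075) and Rpa3 without 21 (0.065). Rfc2 also lost it after quantile normalization (-0.56, 0.23) and with the trended and robust prior (0.063).

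Lig1, the ligase that seals Okazaki fragments, read 8.48, 7.94 and 7.92 in villi, 9.21, 8.96 and 8.95 in crypts and 10.46 in E12 endoderm. Villus and crypt arrays were separate, with a difference of -0.92 ± 0.19 (limma adjusted p = 0.0091). Fen1, the nuclease that trims the flaps of those fragments, read 10.21, 10.23 and 10.28 in villi and 10.27, 10.34 and 10.08 in crypts on the probe set that represents it, and 11.18 in endoderm. Its adult arrays overlapped fully (difference 0.01, 95% interval -0.30 to 0.32), and both adult tissues were called lower than endoderm (-0.95 in crypts and -0.94 in villi). The call in crypts was lost after quantile normalization (-0.62, adjusted p = 0.12) and without probe sets ending in _s_at or _x_at (-1.13, 0.070).

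Enzymes that supply deoxynucleotides were called lower in villi for 3 of 4 genes tested. Rrm2, the regulated subunit of ribonucleotide reductase, read 4.93, 6.06 and 5.93 in villi, 6.21, 7.28 and 7.63 in crypts and 10.13 in E12 endoderm. Villus and crypt arrays of Rrm2 only just separated, and replicate 12 was low in both tissues. Tk1, the thymidine kinase of dividing cells, read 7.29, 7.09 and 7.42 in villi, 8.82, 8.54 and 8.60 in crypts and 10.08 in E12 endoderm, with narrow groups. Villi minus crypts gave -1.40 ± 0.42 for Rrm2 (limma adjusted p = 0.038) and -1.39 ± 0.15 for Tk1 (0.00074). Against endoderm Rrm2 differed by -4.49 in villi, where its mean signal of 5.64 was below the limit on dim signals so that the size is uncertain, and by -3.08 in crypts. The Rrm2 call between villi and crypts was lost without any 1 of 4 arrays (adjusted p 0.057 to 0.14) and when dim genes were kept (0.050).

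Dut, which removes dUTP, read 5.32, 5.81 and 5.89 in villi, 6.33, 6.23 and 6.67 in crypts and 8.60 in E12 endoderm. Its groups were separate, with a villus minus crypt difference of -0.74 ± 0.20 (limma adjusted p = 0.027), lost without any 1 of 4 arrays (0.057 to 0.079). Rrm1, the large reductase subunit, was not called between villi and crypts (-0.61, adjusted p = 0.067), and without crypt replicate 12 it was (-0.84, 0.020). Tyms, thymidylate synthase, did not pass the limit on dim signals in either table.

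The 3 measured genes of chromatin copying were called lower in villi. Dnmt1, the methyltransferase that copies DNA methylation to the new strand, read 7.28, 7.20 and 7.46 in villi, 8.88, 8.72 and 9.04 in crypts and 10.29 in E12 endoderm. Uhrf1, which brings Dnmt1 to newly copied DNA, read 6.25, 6.08 and 6.07 in villi, 7.18, 7.06 and 7.08 in crypts and 9.15 in E12 endoderm. Chaf1b, a subunit of the histone chaperone CAF-1, read 5.49, 5.84 and 5.96 in villi, 6.66, 6.86 and 6.38 in crypts and 8.09 in E12 endoderm. All groups of these genes were separate, in the order villus, crypt and endoderm from low to high. The villus minus crypt difference was -1.56 ± 0.15 for Dnmt1 (limma adjusted p = 0.00044), a 2.96-fold deficit, -0.97 ± 0.13 for Uhrf1 (0.0016) and -0.87 ± 0.19 for Chaf1b (0.011, and 0.052 without crypt replicate 21).

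Of the regulators of S phase entry, 1 of 2 tested was called lower in villi. E2f1, a transcription factor that activates replication genes, read 6.71, 6.76 and 6.67 in villi, 7.64, 7.25 and 7.05 in crypts and 7.70 in E12 endoderm. Ccne1, cyclin E1, which activates Cdk2 at the start of S phase, read 7.23, 7.33 and 7.41 in villi, 7.46, 7.71 and 7.70 in crypts and 8.50 in E12 endoderm. Adult groups did not overlap for either gene, but the crypt arrays of E2f1 reached almost to endoderm. Villi minus crypts gave -0.60 ± 0.18 for E2f1 (limma adjusted p = 0.035) and -0.30 for Ccne1 (0.15, not called). The E2f1 call was lost without any 1 of 5 arrays (adjusted p 0.052 to 0.093), and with its other probe set the difference was -0.07. Crypt minus endoderm was not called for E2f1 (-0.38, adjusted p = 0.29) and was called for Ccne1 (-0.87, 0.018), though not after quantile normalization (-0.69, 0.051).

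Leaving out crypt replicate 21 reduced the members called lower in villi to 16, against 27 with all arrays, and leaving out any other adult array gave 19 to 23. Without that array 8.40% of all genes were called lower, in place of 15.1%, so calls were lost across all genes. Markers of immune cells moved with the same comparison. T cell markers were called higher in villi for 6 of 6 genes, with a median level of 9.02 to 9.94 over the villus arrays and 6.71 to 7.07 over the crypt arrays. B cell markers were called lower in villi for 2 of 3 genes, with a median level of 5.90 to 6.23 in villi and 6.39 to 7.05 in crypts. Blnk, among these markers, read 7.30 to 7.53 in villi and 8.26 to 8.83 in crypts, but also 8.06 in E12 endoderm. In that endoderm array Ms4a1, Cd79a and Cd79b read 5.18 to 5.97, so Blnk may not stand for B cells here. The part of immune cells in the result was not tested.

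**Figure D2:**
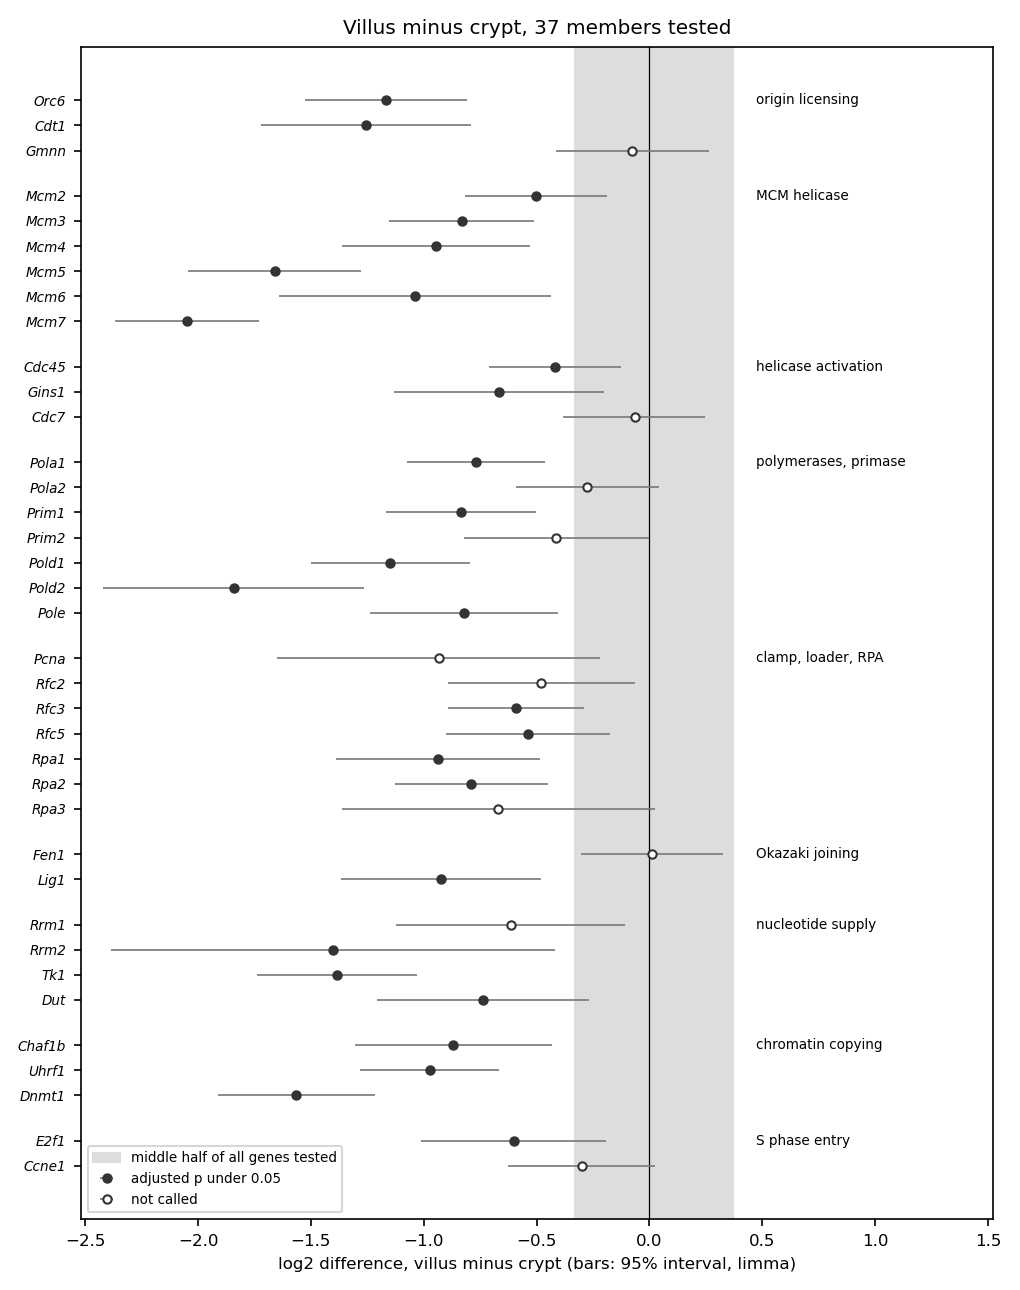
Log2 difference, villus minus crypt (x axis), of the 37 members tested, by role, with 95% limma intervals as bars; filled points have an adjusted p under 0.05 and the grey band spans the 25th to 75th percentile of all genes tested. Most intervals lie left of 0, with Mcm7 at -2.05 furthest left, while Gmnn (-0.08), Cdc7 (-0.07) and Fen1 (0.01) lie at 0.

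Members with an E2F spelling in the promoter window were compared with the rest as a description. All 11 such members tested were called lower in villi than in crypts, with a median difference of -1.04 and a range of -2.05 to -0.59. Orc1 and Cdc6 also held a spelling but did not pass the limit on dim signals. Without this limit their differences were smaller, at -0.55 for Orc1 (not called) and -0.48 for Cdc6 (called). Of 20 members with a promoter but no such spelling, 13 were called lower, with a median of -0.70 and a range of -1.84 to 0.01. The ranges overlapped widely, Pold2 at -1.84 having none of the spellings. These counts use the brightest probe set of each gene. With the median of probe sets, Fen1 (-1.07, limma adjusted p = 0.0024), Cdc7 (-0.60, 0.012) and Rrm1 (-1.18, 0.0023), all without a spelling, were called lower. E2f1, also without one, lost its call (-0.34, 0.098). Members without a matched promoter, such as Mcm4, Gmnn and Pole, were in neither group, and no test was made of this contrast.

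Genes with several probe sets gave a check within the arrays. Over all 73 member probe sets, 66 had a lower mean in villi than in crypts, with 51 called lower and 0 higher. The share over all probe sets was not computed. By gene and without the limit on dim signals, 12.4% of all genes were called lower. Probe sets of the same gene were read on the same arrays, so they are not independent of each other. Among the 23 genes with several, all probe sets pointed the same way in 18, and the largest and smallest differences were more than 1 apart in 9. The probe set of Fen1 used above ends in _x_at, a class that can bind transcripts of other genes. Its other probe set read 5.50, 4.80 and 5.56 in villi, 7.28, 7.12 and 7.88 in crypts and 8.56 in E12 endoderm, with a villus minus crypt difference of -2.14, in contrast with 0.01. The other Cdc7 probe set read 4.81, 4.75 and 4.48 in villi, 6.00, 5.57 and 5.87 in crypts and 7.91 in endoderm, a difference of -1.13 in contrast with -0.07. Both of these probe sets separated villi from crypts on all arrays, unlike the brighter ones.

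The dimmer probe sets of called genes also gave larger differences in some cases. Uhrf1 differed by -2.54 on its dimmer probe set and -0.97 on the brighter one, and Pold1 by -2.35 on the dimmer and -1.15 on the brighter. The villus means of these dimmer probe sets of Fen1 (5.29), Cdc7 (4.68), Uhrf1 (4.83) and Pold1 (5.65) lay below the limit on dim signals, so the sizes of their differences are uncertain. Rrm1, not called on its brighter probe set, differed by -1.75 on the other, which read 6.34, 6.17 and 6.46 in villi and 7.94, 8.11 and 8.18 in crypts. The size of a member's deficit thus depended on the probe set, while no probe set of any member was called higher in villi.

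**Figure D3:**
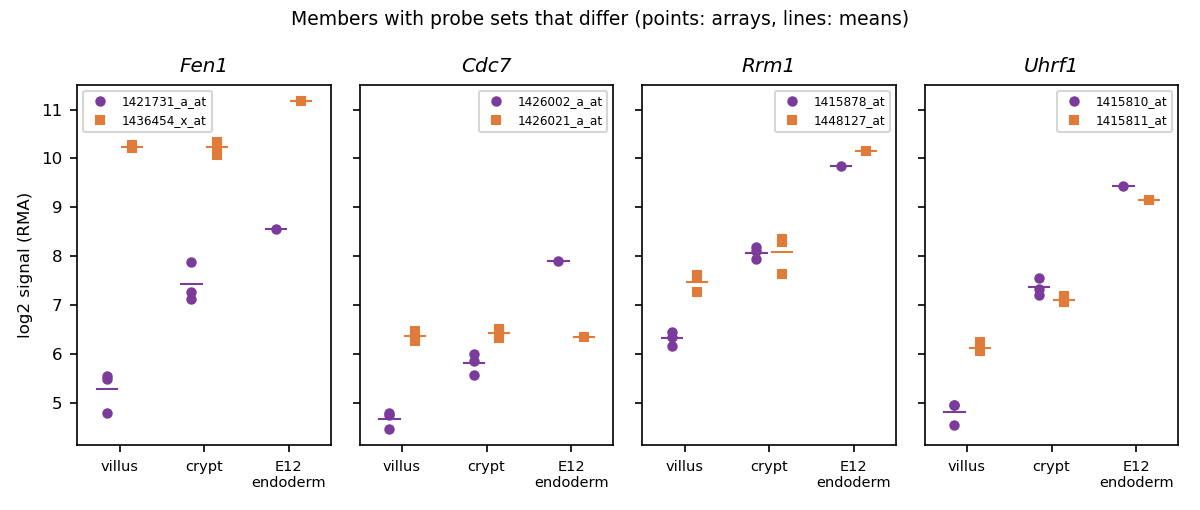
Log2 signal (y axis) of both probe sets of Fen1, Cdc7, Rrm1 and Uhrf1 in villi, crypts and E12 endoderm; points are arrays and lines are group means, with colour and shape marking the probe set. For Fen1 the bright probe set stays near 10.2 in both adult tissues while the other has means of 5.29 in villi and 7.43 in crypts.

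Other genes of the pathway, listed by function, moved in the same direction with exceptions. Of 35 other replication genes tested, 18 were called lower in villi than in crypts and 1 higher, with a median of -0.51. The lowest were Rfc1, the large clamp loader subunit (6.83 ± 0.27 in villi, 8.82 ± 0.31 in crypts, SD, n = 3 each, difference -1.99), and Hells, a chromatin remodeller (4.18 ± 0.06 in villi, below the limit on dim signals, and 6.08 ± 0.09 in crypts, -1.89). Pold4, the smallest subunit of polymerase delta, was higher in villi (7.94 ± 0.31, against 6.43 ± 0.15 in crypts, difference 1.52, limma adjusted p = 0.0012). Pold4 thus ran opposite to Pold1 and Pold2, subunits of the same polymerase. Against E12 endoderm, 21 of 35 were lower in crypts and 0 higher (median -1.03), and 29 were lower and 1 higher in villi (median -1.56).

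Genes of G1 and S control were split. Of 25 tested, 9 were called lower in villi than in crypts and 5 higher, with a median of -0.07. Ccna2, the cyclin of S phase and G2, averaged 7.33 ± 0.41 in villi and 9.63 ± 0.12 in crypts (difference -2.30), and Cdk4, the G1 kinase, 7.05 ± 0.51 in villi and 9.32 ± 0.27 in crypts (-2.27). Cdkn1a, the p21 kinase inhibitor, averaged 12.06 ± 0.15 in villi and 9.42 ± 0.54 in crypts (2.63). Rb1, the retinoblastoma protein that restrains E2F, averaged 8.86 ± 0.70 in villi and 6.88 ± 0.35 in crypts (1.98). Cdkn2b, Rbl2 and Cdkn1c were the other genes called higher, all of them inhibitors of kinases or E2F by known role. Other inhibitors on the list, Cdkn1b, Cdkn2a, Cdkn2c, Cdkn2d and Rbl1, were not called higher.

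Mitosis genes were called lower in villi for 20 of 20 tested, with a median of -1.29. Their lowest was Mki67, the proliferation antigen, with a difference of -3.59. Mki67 was not called between crypt and E12 endoderm (-0.29), where 19 of 21 mitosis genes were called lower in crypts with a median of -1.44. The replication members had a median of -1.76 in that comparison and -0.82 between villi and crypts, and the difference between the lists was not tested.

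**Figure D4:**
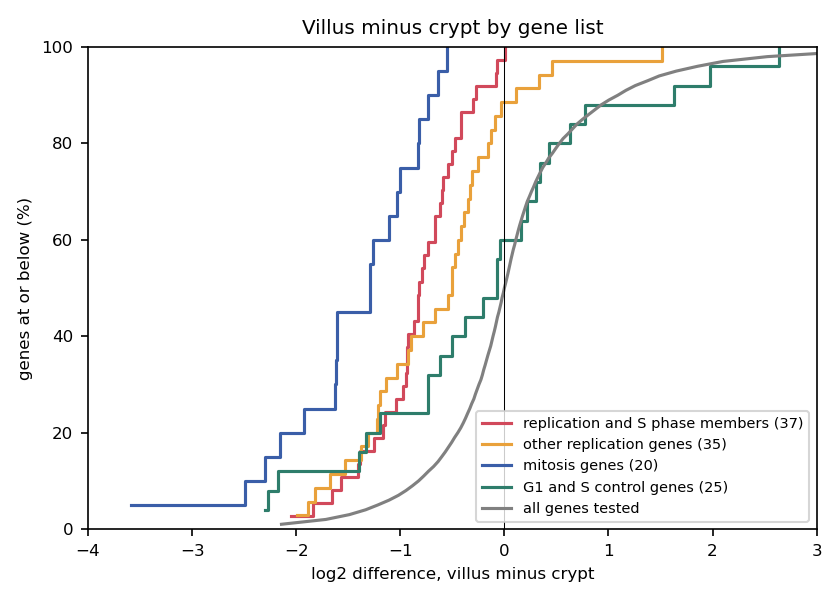
Cumulative share of genes (y axis, %) at or below a given villus minus crypt log2 difference (x axis), for the 37 replication members, 35 other replication genes, 20 mitosis genes, 25 G1 and S control genes and all genes tested. The member curve lies left of the curve of all genes, with medians of -0.82 and 0.00, and the mitosis curve lies further left, with a median of -1.29.

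Between the layers of E12 intestine most replication genes were not called on the second table. Of 41 members tested on the second table, 12 were called higher in endoderm than in mesenchyme (29.3%) and 0 lower, with a median difference of 0.13. Among all 9441 genes tested 27.7% were called higher and 53.1% in either direction, so the share of members called higher was near that of all genes. At an unadjusted p under 0.05, 16 members passed, of which Mcm4 was the only one lower in endoderm. The median member read 9.40, 9.43 and 9.43 in endoderm and 9.20, 9.24 and 9.33 in mesenchyme. Each gene is again represented by its brightest probe set, which for genes such as Cdc7, Uhrf1 and Rrm1 is not the one used in the first table.

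Of the 5 licensing factors, 3 were called higher in endoderm, and Orc1 had the largest difference of any member between the layers. Orc1 read 6.57, 6.94 and 6.94 in endoderm and 5.41, 5.68 and 5.55 in mesenchyme, without overlap. Cdc6, which works with the origin recognition complex to load the helicase, read 8.13, 8.25 and 8.42 in endoderm and 7.75, 7.72 and 7.86 in mesenchyme, also without overlap. The difference was 1.27 ± 0.13 for Orc1 (limma adjusted p = 6e-05), the only member past 2-fold, and 0.49 ± 0.10 for Cdc6 (0.0039). Gmnn was also called, at 0.45.

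In the helicase, Mcm7 read 12.31, 12.18 and 12.25 in endoderm and 11.94, 11.88 and 11.90 in mesenchyme, and Mcm6 11.56, 11.88 and 11.80 in endoderm and 11.38, 11.44 and 11.40 in mesenchyme. Both were separate between the layers and higher in endoderm by 0.34, with an adjusted p of 0.0085 for Mcm7 and 0.024 for Mcm6. The Mcm7 call was lost with the median of its probe sets (0.245, adjusted p = 0.12) and without probe sets ending in _s_at or _x_at (0.150, 0.50). Mcm4 had the opposite order, with 10.65, 10.78 and 10.81 in endoderm and 11.00, 10.95 and 10.91 in mesenchyme (-0.21, adjusted p = 0.077). Gins1 (9.01, 8.84 and 8.90 in endoderm, 8.61, 8.72 and 8.89 in mesenchyme) and Cdc7 (8.46, 8.0 and 8.27 in endoderm, 8.87, 8.29 and 8.73 in mesenchyme) overlapped between the layers and were not called, at 0.18 for Gins1 and -0.39 for Cdc7. Cdc7 was lower in endoderm in all 3 same-numbered pairs and was called with the replicate number as a block (adjusted p = 0.011).

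Among the fork enzymes, Pola2, the partner of the alpha polymerase, read 9.17, 9.01 and 9.0 in endoderm and 8.46, 8.39 and 8.58 in mesenchyme, a clear separation (0.58, limma adjusted p = 0.0010). Rfc5, a loader subunit, read 9.27, 9.25 and 9.28 in endoderm and 8.73, 8.75 and 8.61 in mesenchyme, the arrays within each layer lying close together (0.57, 0.00056). Prim1 read 9.41, 9.59 and 9.50 in endoderm and 9.68, 9.73 and 9.66 in mesenchyme. On this second table every endoderm array was lower, but Prim1 was not called (-0.19, limma adjusted p = 0.10). In the E12 pair of the first table Prim1 was higher in endoderm on the same probe set (9.465, against 9.056 in mesenchyme). Rpa2 read 9.13, 9.18 and 9.21 in endoderm and 8.65, 9.11 and 8.98 in mesenchyme and was not called either (0.26, 0.12). Rfc5 and Pola2 thus stood apart from the other members of their groups, of which none was called. Fen1 read 10.85, 10.30 and 10.47 in endoderm and 10.21, 9.87 and 10.13 in mesenchyme (0.47, adjusted p = 0.034). Lig1 read 10.24, 10.01 and 10.05 in endoderm and 10.15, 10.09 and 10.11 in mesenchyme, overlapping, with a difference of -0.02.

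Dut read 9.39, 9.45 and 9.48 in endoderm and 8.85, 9.13 and 9.24 in mesenchyme (0.37, limma adjusted p = 0.026). Tk1 read 8.96, 9.10 and 9.13 in endoderm and 8.82, 8.77 and 8.77 in mesenchyme (0.28, 0.026). In both, all endoderm arrays were above all mesenchyme arrays, by a narrow margin. Chaf1b read 8.96, 9.09 and 9.01 in endoderm and 8.45, 8.49 and 8.52 in mesenchyme (0.53, 0.00080). Uhrf1 read 10.70, 10.59 and 10.56 in endoderm and 10.24, 10.08 and 9.96 in mesenchyme (0.52, 0.0026), and these layers were further apart. The other Uhrf1 probe set overlapped between the layers, with a difference of 0.09. It read 8.25, 9.02 and 9.16 in endoderm and 8.95, 8.57 and 8.65 in mesenchyme, so the overlap lay in endoderm replicate 2. E2f1 read 6.99, 7.08 and 7.0 in endoderm and 7.10, 7.14 and 7.12 in mesenchyme (-0.10, not called), and Ccne1 read 8.06, 7.64 and 7.65 in endoderm and 7.73, 7.57 and 7.74 in mesenchyme (0.10, not called).

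With the replicate number as a block, 15 of the 41 members were called higher in endoderm and 1 lower, where 28.0% of all genes were called higher and 25.9% lower. The block added Orc6 (0.29, adjusted p 0.037), Cdt1 (0.26, 0.038) and Dnmt1 (0.32, 0.049) to those higher, and Cdc7 as the lower one. Calls of Mcm6, Fen1, Tk1 and Dut were each lost without any 1 of at least 4 of the 6 arrays (adjusted p 0.052 to 0.12), and leaving out 1 array gave 8 to 14 members called. The E12 pair of the first table, from other pools and not used in this test, was read on the probe sets chosen in the second table. It had all 12 called members higher in endoderm, by 0.20 to 1.00. In that pair 95.3% of all genes called higher in the second table were also higher. Of all 41 members tested, 36 were higher in endoderm in the pair, with a median of 0.40, against 55.1% of all genes tested. These counts depended on the probe set. On those used for the adult tissues, Uhrf1 (9.15 in endoderm, 9.64 in mesenchyme), Rrm1 (10.15, 10.76) and Dnmt1 (10.29, 10.42) were lower in endoderm in the pair. Mcm3 (9.90, 9.20) and Pold1 (8.967, 8.955) were still higher.

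Erythroid markers were called lower in endoderm for 4 of 5 genes and endothelial markers for 5 of 5. The median erythroid level was 5.08 to 5.17 in endoderm and 8.55 to 8.98 in mesenchyme, and the median endothelial level 4.55 to 4.61 in endoderm and 7.68 to 7.81 in mesenchyme, and the part of these cells in the result was not tested. Other replication genes were called higher in endoderm for 13 of 35 and lower for 1 (median 0.22), the largest being Shmt1, an enzyme of folate metabolism (1.43), and Mcm10, which helps to activate the helicase (1.25). G1 and S control genes were called higher for 6 of 24 and lower for 9, with Cdkn1a at 2.75 and Cdkn1c, the p57 kinase inhibitor, at -2.12. Mitosis genes were called higher for 6 of 23 and lower for 2 (median 0.17).

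**Figure D5:**
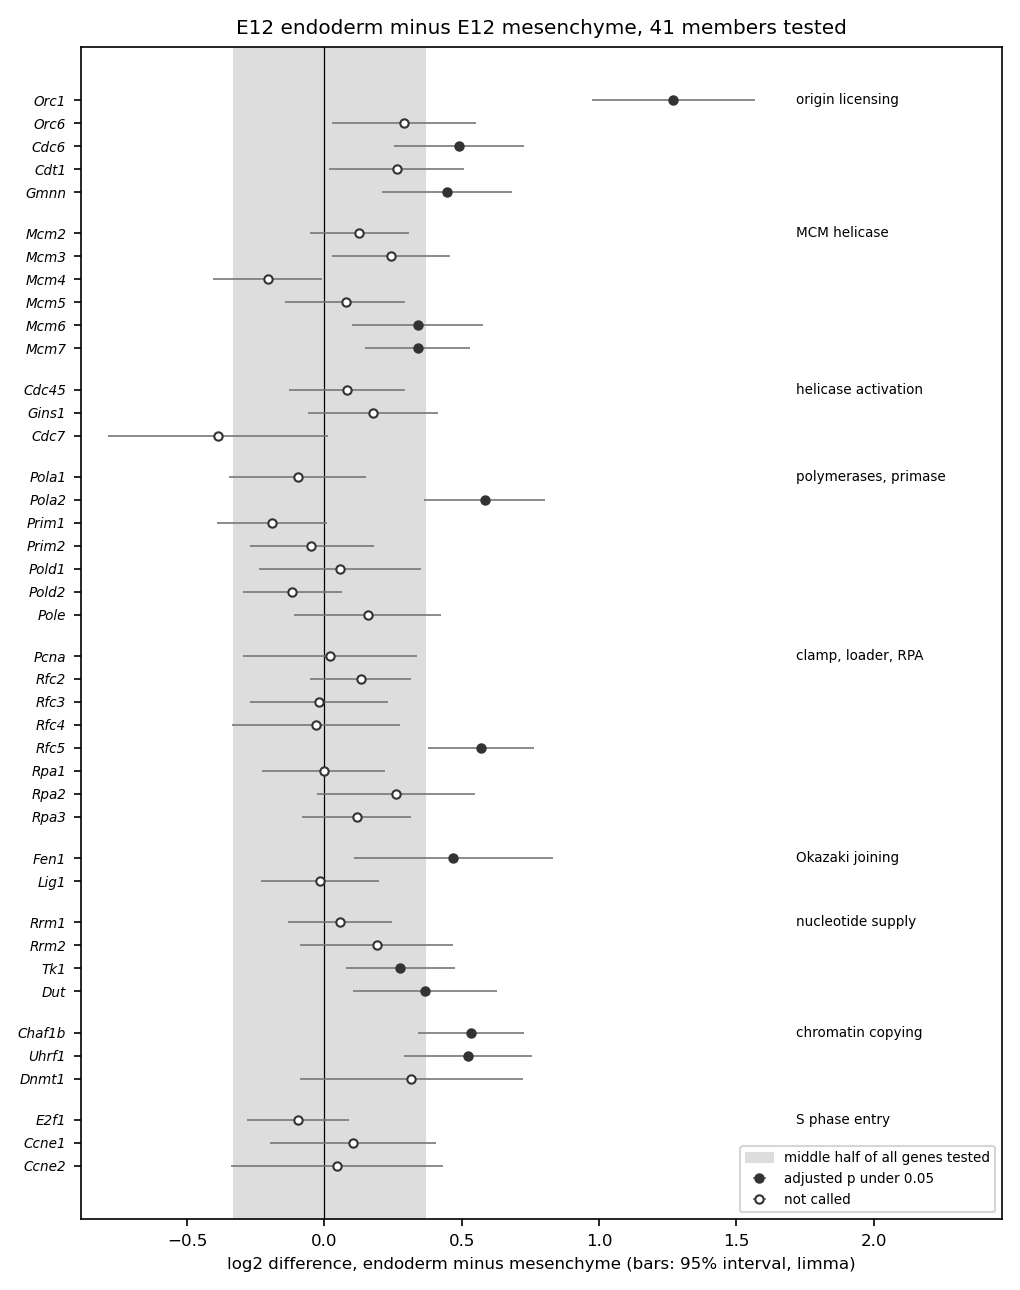
Log2 difference, E12 endoderm minus E12 mesenchyme (x axis), of the 41 members tested, by role, with 95% limma intervals as bars; filled points have an adjusted p under 0.05 and the grey band spans the 25th to 75th percentile of all genes tested. Most members lie inside the band, and Orc1 at 1.27 stands clear of it.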

How the data were processed

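RNA of 14 mouse intestinal samples was hybridised to single-colour arrays. The deposited values are log2 signals that the authors made with RMA, per the submitters' processing notes, whose version is not given in the sources used here. They came as separate tables of 8 and 6 arrays and were kept as deposited. Arrays have no read depth, and precision is limited by how many there are. Probe sets were named from the platform annotation: of 22690, 20393 carried 1 symbol, 691 several and 1606 none, and only the first kind was used. Each of 12393 genes was represented by its probe set with the highest mean in the arrays of a fit, and was tested if it exceeded the 30th percentile of the table in at least 3 arrays.

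Groups were compared with limma 3.58.1 in R 4.3.3 (lmFit, eBayes) with Benjamini-Hochberg adjustment over all genes tested, and called at an adjusted p under 0.05. Villus minus crypt used the 6 adult arrays. Both comparisons with E12 endoderm used all 8 arrays of the first table, where that group has 1 array. E12 endoderm minus E12 mesenchyme used the second table. In that table same-numbered arrays deviated together (correlations of 0.21, 0.23 and 0.11), though endoderm replicate 3 with mesenchyme replicate 4 also gave 0.13. The main test and its intervals did not pair the arrays. Values with the number as a block are therefore given beside the result where they change a call. The fitting steps were tested on simulated data. Alternatives changed the normalization, the summary of probe sets, the limit on dim genes, the variance prior, the probe set classes, the arrays and the block. In each role every array value is given for the 2 members with the largest difference in a comparison. The members and all lists were chosen with earlier results of these data known. Promoters came from RefSeq on GRCm38.p6.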

Additional observations from a re-analysis of the deposited data

How the results depend on the processing

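The sign of the median member difference held under every alternative run, and the count of called members moved by over 1.5 times only between villi and crypts. There the 27 members called became 16 without crypt replicate 21 and 11 with the replicate number as a block. The labels do not say that adult arrays 12 and 41 of both tissues share an animal, only these numbers recur, and their correlations were 0.16 and 0.07, so the block stands here alone. Its design has fewer degrees of freedom, and across all genes it called 417 lower and 830 higher, against 1493 and 1687. The 6 fits that left out 1 array gave 16 to 23 members. Other settings gave 22 (without probe sets ending in _s_at, _x_at or _a_at) to 28. Crypt minus E12 endoderm gave 30 to 37 members over all alternatives and 31 to 35 without 1 array. Villus minus E12 endoderm gave 32 to 39 and 38 to 38. E12 endoderm minus E12 mesenchyme gave 9 to 17, with 16 under the replicate block, which the text prints, and 8 to 14 without 1 array. An alternative added after seeing the data, without probe sets ending in _s_at or _x_at, gave 28, 34, 38 and 11 members in these comparisons.

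Directions that reversed concerned members whose difference was near 0 in the main fits, and the cause was not tested. Between villi and crypts, Fen1 was -0.36 after quantile normalization, -1.07 when its probe sets were summarised by their median and -2.14 with _x_at probe sets left out, and -0.066 to 0.066 without 1 array. Gmnn was -0.170 to 0.007 without 1 array, and Cdc7 0.021 with the replicate block. Against E12 endoderm, Cdc7 was -0.017 after quantile normalization and -1.61 as the median of its probe sets in villi (-0.045 to 0.058 without 1 array), and -0.002 and -1.01 in crypts. Between the E12 layers, the median of probe sets gave -0.028 for Pold1, 0.068 for Rfc4, -0.23 for Rrm1 and -0.137 for Rrm2. Leaving out probe set classes gave -0.120 for Mcm2, -0.113 for Pold1 and -0.137 for Rrm2, and quantile normalization gave 0.016 for Rpa1. All 8 E12 arrays together gave 0.004 for Prim2, -0.003 for Pcna, 0.135 for Rfc3, 0.091 for Rfc4, 0.090 for Rpa1, 0.074 for Lig1 and -0.54 for Rrm1. The Rrm1 probe set not used in the main fit of the layers read 8.78 in endoderm replicate 2. It read 10.68 and 10.70 in endoderm replicates 3 and 4, and 10.64, 10.45 and 10.61 in mesenchyme. Fits without 1 array spanned -0.162 to 0.003 for Pola1, -0.083 to 0.137 for Pold1, -0.067 to 0.178 for Pcna, -0.077 to 0.088 for Rfc3 and -0.153 to 0.087 for Rfc4. They spanned -0.053 to 0.060 for Rpa1, -0.087 to 0.028 for Lig1, -0.035 to 0.175 for Ccne1 and -0.152 to 0.153 for Ccne2.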
